A study of Mus musculus with 6 samples.

Results

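Collagen chains become stable triple helices only after they have been hydroxylated and chaperoned in the endoplasmic reticulum, and the secreted molecules are then crosslinked outside the cell. The genes described here are 10 that carry out those steps. They comprise 2 chaperones (Serpinh1 and Fkbp10), a subunit of the prolyl 3-hydroxylase complex (Crtap), the catalytic alpha subunits of prolyl 4-hydroxylase (P4ha1, P4ha2 and P4ha3), the lysyl hydroxylases (Plod1, Plod2 and Plod3) and the crosslinking enzyme lysyl oxidase (Lox). They were chosen by symbol from the 56496 genes of the deposited table, and all 10 were found there. RNA-seq had been made from bone marrow cells in 6 libraries. The Onway group held 3 libraries (Onway 1, Onway 2 and Onway 3), labelled day 14, whose mice had received Onway by gavage over 2 weeks. The Control group held 3 libraries (Control 4, Control 5 and Control 6) from mice not given Onway, labelled day 0. All mice were female BALB/c animals, marked WT, whose 4T1 tumour had been resected (4T1 is a mammary carcinoma line of the mouse). The sources used here give neither the contents of Onway nor the age of the mice. Because treatment and day coincide, their effects cannot be told apart. The labels' extraction text also describes a culture with dexamethasone, isobutylmethylxanthine and insulin, and whether these cells went through it is not stated. Whether the libraries stem from separate mice is not stated, and p-values reflect only the variation among these libraries, which may be technical.

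Prolyl 4-hydroxylation lets the collagen triple helix hold together at body temperature. The P4ha subunits do this work together with protein disulfide isomerase, the product of P4hb. Lysyl hydroxylases prepare lysines for sugar attachment and for crosslinks, and Plod2 is known for hydroxylating lysines in the ends of the collagen chain, outside the helix. Serpinh1 binds folded procollagen and escorts it out of the endoplasmic reticulum, and Fkbp10 is a peptidyl-prolyl isomerase that supports folding and the work of Plod2. Both hydroxylase families need iron, ascorbate and 2-oxoglutarate. In marrow, these genes are known above all from osteoblasts and fibroblasts, which secrete large amounts of collagen, and in mice Lox is known from immature megakaryocytes as well.

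Alternative exons in 2 of the genes decide which form of the enzyme is made, and their sequences are shown because the table gives a separate value to each form. The Plod2 exon lies on chromosome 9, from 92601985 to 92602047 (GRCm38, plus strand). It is 63 bases long, keeps the reading frame and is exon 14 of 20 in its transcript, whose coding length is 2274 bases against 2211 without it. It is printed from the GENCODE M21 transcript with the exon in capitals and 20 bases of the flanking exons on each side in lower case. P4ha1 holds 2 exons of 71 bases, of which a transcript carries either. They lie on chromosome 10 (GRCm38, plus strand), from 59355350 to 59355420 and from 59354340 to 59354410. Aligned base by base, 42 of their 71 bases are identical (59.2%), and capitals mark the 29 that differ.
Plod2 exon: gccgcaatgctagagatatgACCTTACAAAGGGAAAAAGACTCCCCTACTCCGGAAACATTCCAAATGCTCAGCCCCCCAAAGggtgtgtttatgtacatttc
P4ha1 downstream exon: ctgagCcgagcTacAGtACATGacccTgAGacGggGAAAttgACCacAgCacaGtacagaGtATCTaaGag
P4ha1 upstream exon: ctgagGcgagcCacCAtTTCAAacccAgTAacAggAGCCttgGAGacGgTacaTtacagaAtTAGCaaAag

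Marrow of Onway-treated mice carried less RNA of 4 of the 10 genes, Serpinh1, Fkbp10, Plod2 and Lox, while P4ha1, Plod1, Plod3 and Crtap overlapped between the groups. The falls ran from 9.15-fold for Plod2 to 30.8-fold for Lox between group means of TPM, a level scaled for transcript length and library total. The limma test, on log2(TPM + 1), took in genes averaging 1 TPM or more, and 8 of the 10 qualified. P4ha2 and P4ha3 fell short of that mean. Of the 8, 4 fell and 0 rose at a Benjamini-Hochberg adjusted p under 0.05, against 2.99% of all 14192 tested genes lower and 0.233% higher. At an unadjusted p under 0.05, limma also had 4 of the 8 lower and 0 higher, and 1897 of all 14192 in either direction. Fkbp10, Plod2 and Lox reached the mean of 1 TPM through Control alone, so their difference is partly built into the selection. Serpinh1 and the 4 genes that did not pass had at least 1 TPM in both groups, where 1.48% of tested genes fell. The means in the authors' deposited table contain a further value per group. For Serpinh1 and Fkbp10 it was higher in Onway (2.83 and 0.62 TPM) than in Control (2.44 and 0.44 TPM), and for Plod2 and Lox lower in Onway (0.41 and 0.27 TPM) than in Control (0.55 and 0.96 TPM). In bulk RNA, fewer cells of a type and less RNA per cell cannot be told apart.

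**Figure D1:**
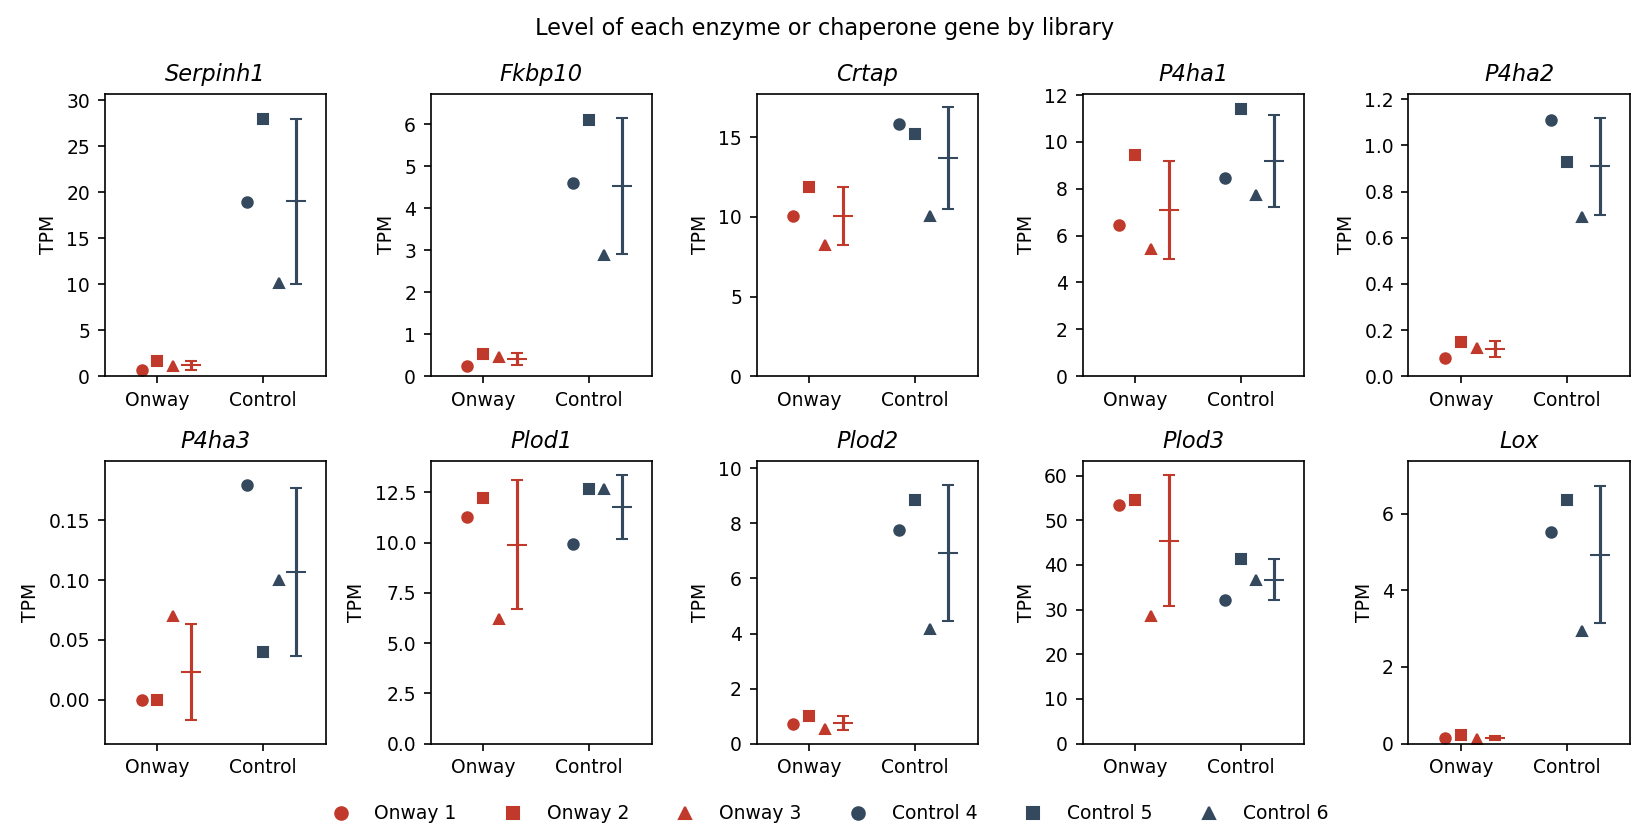
Level of each of the 10 genes in TPM (vertical axes, linear) in the 3 Onway libraries (red) and the 3 Control libraries (blue), with the group mean and SD beside the points. Serpinh1, Fkbp10, P4ha2, Plod2 and Lox stand apart between the groups, and the other 5 genes overlap.

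Serpinh1, the collagen-specific chaperone (ENSMUSG00000070436, chromosome 7, 99345376 to 99353239, GRCm38), had 0.68, 1.70 and 1.15 TPM in Onway 1, Onway 2 and Onway 3, against 18.9, 28.0 and 10.1 TPM in Control 4, Control 5 and Control 6. Every Onway library was below every Control library, a pattern that 11.5% of tested genes shared. The means were 1.18 ± 0.511 TPM in Onway and 19.0 ± 8.96 TPM in Control (SD, n = 3 each), a 16.2-fold fall. Its log2 fold change was −3.12 (SE 0.37, limma with Benjamini-Hochberg adjusted p = 0.0042). Of its 7 listed transcripts 4 share a coding length of 1251 bases. The main one took 83.1% ± 13.0 of its TPM in Onway and 82.4% ± 3.53 in Control, and it led in every library.

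Fkbp10 (ENSMUSG00000001555, chromosome 11, 100415697 to 100424824), the isomerase that folds procollagen, had 0.24, 0.52 and 0.46 TPM in the Onway libraries, against 4.61, 6.10 and 2.88 TPM in Control 4, Control 5 and Control 6. The groups did not overlap. The fall was 11.1-fold between means of 0.407 ± 0.147 TPM in Onway and 4.53 ± 1.61 TPM in Control (SD, n = 3 each), with a log2 fold change of −1.94 (SE 0.27, limma adjusted p = 0.0080). The 3′ part of Fkbp10 overlaps Nt5c3b, a nucleotidase gene on the other strand, over 2504 bases. Nt5c3b had 10.1 to 11.6 TPM in Onway and 10.4 to 15.7 TPM in Control. The sources used here do not state strand use in the counting, so reads of the pair may be shared.

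Crtap (ENSMUSG00000032431, chromosome 9, 114375134 to 114390675), which forms the prolyl 3-hydroxylation complex with P3h1 and Ppib, had 10.1, 11.9 and 8.26 TPM in Onway 1, Onway 2 and Onway 3. In Control 4, Control 5 and Control 6 it had 15.9, 15.2 and 10.1 TPM. The groups met between Onway 2 and Control 6, and the log2 fold change was −0.40 (SE 0.23, limma adjusted p = 0.52). The coding transcript of Crtap made up 61.7% ± 6.25 of its TPM in Onway and 77.8% ± 6.45 in Control (SD, n = 3 each), and a short transcript with a retained intron made up the rest. That coding transcript had 5.50, 7.84 and 5.35 TPM in Onway and 11.8, 11.2 and 8.57 TPM in Control. The short one ranged from 2.91 to 4.59 TPM in Onway and from 1.48 to 4.05 TPM in Control. These transcript values were not tested.

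The prolyl 4-hydroxylase alpha subunits divided by gene. P4ha1, the most widely expressed of them (ENSMUSG00000019916, chromosome 10, 59323296 to 59373304), had 6.47, 9.45 and 5.42 TPM in Onway, against 8.45, 11.4 and 7.73 TPM in Control. Its groups overlapped (log2 fold change −0.34, SE 0.24, limma adjusted p = 0.61). P4ha2, the alpha subunit prominent in cartilage and bone (ENSMUSG00000018906, chromosome 11, 54100095 to 54131665), had 0.08, 0.15 and 0.12 TPM in Onway, against 1.11, 0.93 and 0.69 TPM in Control. Its groups stood apart by 7.80-fold in the mean, at levels under the filter, and 10.9% of genes above 0 in some library had Onway lower with no overlap. When all 28727 genes above 0 in some library were tested, of which 1.56% fell, P4ha2 had an adjusted p of 0.056 in limma, and with a minimum of 0.1 TPM it had one of 0.033. P4ha3 (ENSMUSG00000051048, chromosome 7, 100285520 to 100319699) was listed at 0 in Onway 1 and Onway 2 and at 0.07 TPM in Onway 3, against 0.18, 0.04 and 0.10 TPM in Control. No library held enough P4ha3 for a comparison (adjusted p = 0.52 in limma with no filter).

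P4ha1 therefore made up nearly all alpha-subunit RNA in the treated marrow. Its share of the summed P4ha TPM was 98.8%, 98.4% and 96.6% in the Onway libraries and 86.8%, 92.2% and 90.7% in the Control libraries. P4ha2 took 1.22%, 1.56% and 2.14% in Onway and 11.4%, 7.50% and 8.10% in Control. Neither share overlapped between the groups (exact permutation p = 0.10 for each, two-sided, the smallest that 3 against 3 libraries allow, and 0.12 after Benjamini-Hochberg adjustment over the 6 shares of both families). Between the P4ha1 transcripts with the mutually exclusive exons shown above, the form with the downstream exon led in every library. It took 75.0%, 58.9% and 77.9% of that pair in Onway and 68.9%, 80.2% and 78.3% in Control, and the groups overlapped.

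Of the lysyl hydroxylases, Plod2 fell and the other two did not pass the test. Plod2 (ENSMUSG00000032374, chromosome 9, 92542223 to 92608428) had 0.71, 1.02 and 0.54 TPM in Onway, against 7.76, 8.85 and 4.15 TPM in Control, with no overlap. Its means were 0.757 ± 0.243 TPM in Onway and 6.92 ± 2.46 TPM in Control (SD, n = 3 each), and its log2 fold change was −2.13 (SE 0.28, limma adjusted p = 0.0066). Plod1, which hydroxylates lysines within the helix (ENSMUSG00000019055, chromosome 4, 147909753 to 147936767), had 11.3, 12.2 and 6.22 TPM in Onway and 9.94, 12.7 and 12.7 TPM in Control (log2 fold change −0.27, SE 0.26, limma adjusted p = 0.72). Plod3, which also attaches sugars to hydroxylysine (ENSMUSG00000004846, chromosome 5, 136987019 to 136996648), was the most abundant of the 10 genes in every library. It had 53.3, 54.4 and 28.5 TPM in Onway and 32.1, 41.4 and 36.6 TPM in Control (log2 fold change 0.25, SE 0.27, limma adjusted p = 0.75). Plod1 and Plod3 overlapped between the groups, and both were lowest in Onway 3.

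Plod2 held a smaller part of lysyl hydroxylase RNA in Onway. Its share of the summed Plod TPM was 1.09%, 1.51% and 1.53% in the Onway libraries and 15.6%, 14.1% and 7.77% in Control 4, Control 5 and Control 6. Plod3 took 81.0% ± 0.615 in Onway and 66.3% ± 2.06 in Control (SD, n = 3 each), and Plod1 took 17.7% ± 0.391 and 21.3% ± 2.12 in the same order of groups. None of these shares overlapped between the groups (exact permutation p = 0.10 for each, adjusted p = 0.12 over the 6 shares). Counting annotated transcripts alone moved the Plod2 difference of Onway minus Control to −21.1 percentage points from −11.1, and that of Plod1 to −0.147 from −3.62. The family sum itself overlapped, at 56.1 ± 18.1 TPM in Onway and 55.4 ± 6.77 TPM in Control (exact permutation p = 1.0).

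**Figure D2:**
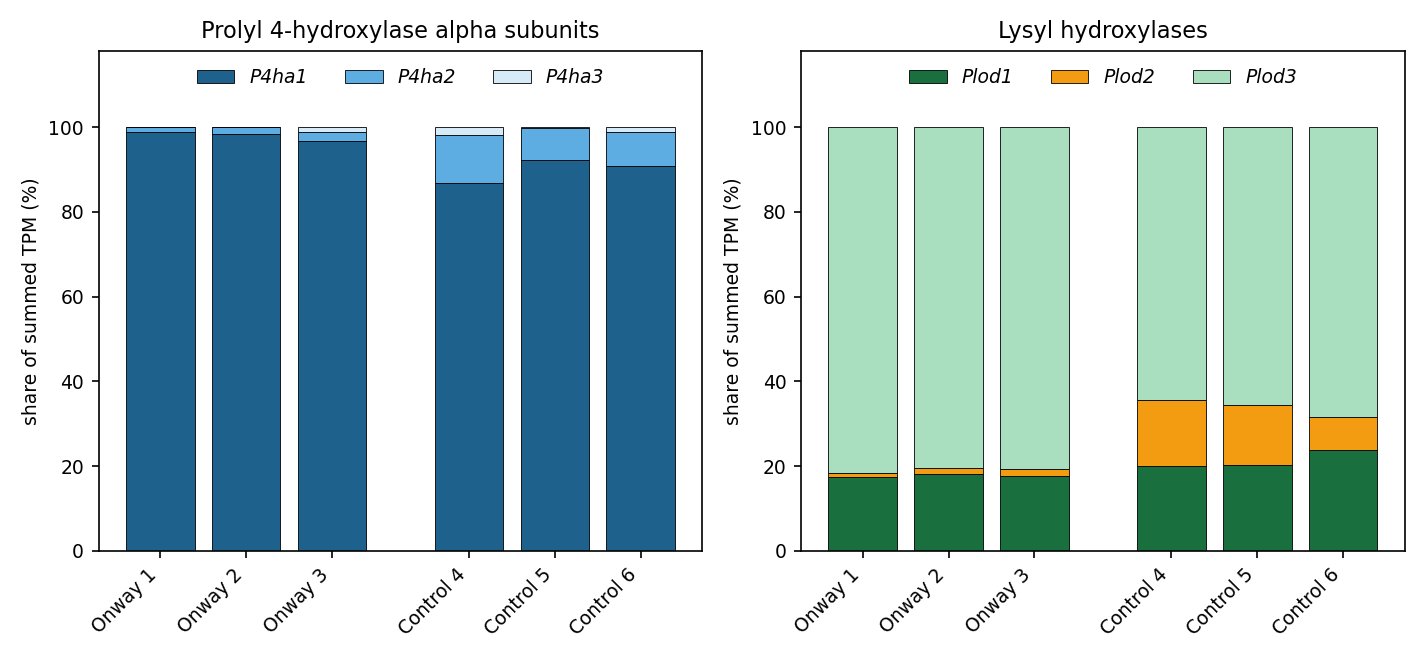
Share (percent, vertical axes from 0) of each gene in the summed TPM of its family, in 1 bar per library, with Onway libraries left of Control libraries. P4ha2 is 1.22% to 2.14% of its family in Onway and 7.50% to 11.4% in Control, and Plod2 is 1.09% to 1.53% of its family in Onway and 7.77% to 15.6% in Control.

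The form of Plod2 with the 63-base exon printed above, the form associated with hydroxylation outside the helix, was the main Plod2 transcript in Control. It had 0.11, 0.43 and 0.34 TPM in Onway, against 4.75, 6.51 and 2.82 TPM in Control. The form without that exon had 0.16 TPM in Onway 1 and was listed at 0 in Onway 2 and Onway 3, against 0.74, 0.97 and 0.55 TPM in Control. In Control the longer form was 86.5%, 87.0% and 83.7% of the pair. In Onway it was 40.7%, 100% and 100%, shares of a total under 1 TPM, so a change of form could not be judged there. Most Plod3 signal (66.4% ± 1.14 in Onway and 70.3% ± 3.80 in Control) lay on a transcript of 2672 bases that the authors had assembled. Its coordinates were not used here, and the 5′ end of Plod3 overlaps Znhit1, a gene of a chromatin remodelling complex on the other strand, over 1003 bases. Znhit1 was at 54.6 to 81.8 TPM in Onway and 64.4 to 91.9 TPM in Control, so the absolute level of Plod3 is uncertain.

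Lox, which oxidises lysines so that collagen and elastin fibres crosslink (ENSMUSG00000024529, chromosome 18, 52516067 to 52529867), fell furthest by ratio among the 4 called genes. It had 0.14, 0.22 and 0.12 TPM in Onway, against 5.51, 6.35 and 2.93 TPM in Control. The groups stood far apart, with means of 0.160 ± 0.0529 TPM in Onway and 4.93 ± 1.78 TPM in Control (SD, n = 3 each). The log2 fold change was −2.31 (SE 0.28, limma adjusted p = 0.0041). Being fitted on log2(TPM + 1), it understates a ratio this close to 0 TPM.

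By level, the order in Onway was Plod3, then Crtap, Plod1 and P4ha1, then Serpinh1, Plod2, Fkbp10, Lox, P4ha2 and P4ha3. In Control it was Plod3, Serpinh1, Crtap, Plod1, P4ha1, Plod2, Lox, Fkbp10, P4ha2 and P4ha3. Some neighbours in these orders differed by less than the larger of their SDs. Crtap and Plod1 did so in both groups. In Onway, so did Plod1 and P4ha1, Serpinh1 and Plod2, and Lox and P4ha2. In Control, so did Serpinh1 and Crtap, P4ha1 and Plod2, Plod2 and Lox, and Lox and Fkbp10. Serpinh1 was the fifth of the 10 genes by mean in Onway and the second in Control, although in Control 6 it lay below Plod1 and level with Crtap. The 4 calls held when any single library was left out (highest adjusted p 0.046 for Fkbp10, 0.043 for Plod2, 0.040 for Serpinh1 and 0.030 for Lox in limma). Without both Control 4 and Onway 3, 0 of the 10 genes were called, with the log2 fold changes nearly as before (Serpinh1 −3.08, Lox −2.19, Plod2 −1.94 and Fkbp10 −1.93, and adjusted p = 0.11, 0.067, 0.085 and 0.087).

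The 4 fallen genes had the same order within Control, highest in Control 5, then Control 4, then Control 6. The fibrillar collagen chains, their main substrate, had sums of 17.3, 25.3 and 15.9 TPM in Onway, against 290, 563 and 85.4 TPM in the Control libraries 4, 5 and 6, the same order. Of 9 tested chains 3 fell, against 2.99% of all tested genes, namely Col2a1, Col5a2 and Col1a2 (limma adjusted p = 0.00088, 0.025 and 0.026). Col2a1 and Col5a2 reached the filter through Control alone. Of the 6 chains at 1 TPM or more in both groups 1 fell, against 1.48% of all tested genes at that level. The calls of Col5a2 and Col1a2 ended without Onway 1, Onway 2, Onway 3 or Control 4 (adjusted p from 0.060 to 0.12). Col1a1 was at 1.22 ± 1.11 TPM in Onway and 100 ± 83.5 TPM in Control (SD, n = 3 each, limma adjusted p = 0.052, and under the threshold in 9 of 17 alternatives, among them 0.0026 without Control 6), and Col11a2 at 2.50 ± 0.597 and 18.6 ± 13.5 TPM in the same order of groups (adjusted p = 0.19 in limma, and 0.0034 without Control 6). Over the 6 libraries, the tested gene most like Serpinh1 in log2(TPM + 1) was Fkbp10 (Pearson r = 0.999), followed by Lum, the matrix proteoglycan lumican (0.999), and Copz2, a coat protein of Golgi vesicles (0.998). The same genes led for Fkbp10 (Serpinh1 0.999, Lum 0.999, Copz2 0.997). Plod2 was most like Lox (0.997), Nudt1 (0.997) and Bglap2 (0.996). Nudt1 itself did not pass, at 11.1 TPM in Onway and 13.1 TPM in Control (means, limma adjusted p = 0.58). Lox was most like Lum (0.997), Plod2 (0.997) and Gpx8 (0.996). These correlations are descriptions over 6 libraries that fall into 2 groups, and 164 to 232 named genes exceeded 0.95 with each of the 4.

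Most tested markers of cells that make collagen were lower in Onway, as the fallen genes were. Beside their counts stand 2.99% of all tested genes lower, and 1.48% of those at 1 TPM or more in both groups. At that level in both groups, 2 of 3 osteoblast, 3 of 4 stromal, 3 of 3 muscle, 3 of 5 endothelial and 8 of 8 megakaryocyte markers fell. The other called markers of these 5 cell types reached the filter through Control alone. The summed TPM of 8 osteoblast and osteocyte markers was 13.2, 22.4 and 11.7 in Onway and 236, 440 and 149 in Control 4, Control 5 and Control 6, and 6 of 7 tested ones fell. Of these markers Mepe was listed at 0 in every Onway library and Dmp1 in Onway 3, while Runx2 overlapped. The 9 fibroblast and stroma markers summed to 25.6 to 41.5 TPM in Onway and 197 to 357 TPM in Control, and 7 of 8 tested ones fell. Of the other cell types, 8 megakaryocyte markers summed to 95.4 to 153 TPM in Onway and 1915 to 2162 TPM in Control, and 8 of 8 fell. The 7 skeletal muscle markers summed to 12.6 to 16.9 TPM in Onway and 534 to 3464 TPM in Control, with 6 of 7 lower. The 7 endothelial markers summed to 30.5 to 37.3 TPM in Onway and 62.9 to 79.8 TPM in Control, with 5 of 7 lower. Of the 5 chondrocyte markers only Col2a1 had more than 0.2 TPM in any library, and Col9a1 was listed at 0 in every library. The Control order of the fallen genes was seen in some markers of more than 1 cell type, chosen after their values were seen. Bglap (127, 346 and 59.4 TPM in Control 4, Control 5 and Control 6), the largest osteoblast marker in each Control library, had it. So did Mepe and the stromal genes Dcn (33.9, 49.5 and 28.4 TPM) and Lum. The stromal sum did not have it (357, 197 and 256 TPM in the same order), nor did Dpt and Thy1. Cxcl12, Lepr, Pdgfra, Pdgfrb and Postn were highest in Control 4 and lowest in Control 5. In each Onway library the largest osteoblast marker was Runx2. Ibsp, Alpl and Phex were highest in Control 4, and Dmp1, Sp7 and Runx2 in Control 6. Macrophage markers summed to 121 to 153 TPM in Onway and 225 to 363 TPM in Control. At an unadjusted p under 0.05, limma had 6 of 7 lower and 0 higher, and 1897 of all 14192 tested genes in either direction. Past the adjusted threshold 1 of the 7 was lower. It was Vcam1, at 34.1 ± 0.990 TPM in Onway and 86.7 ± 16.5 TPM in Control (SD, n = 3 each, limma adjusted p = 0.0090). The part of these cells in the result was not tested.

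**Figure D3:**
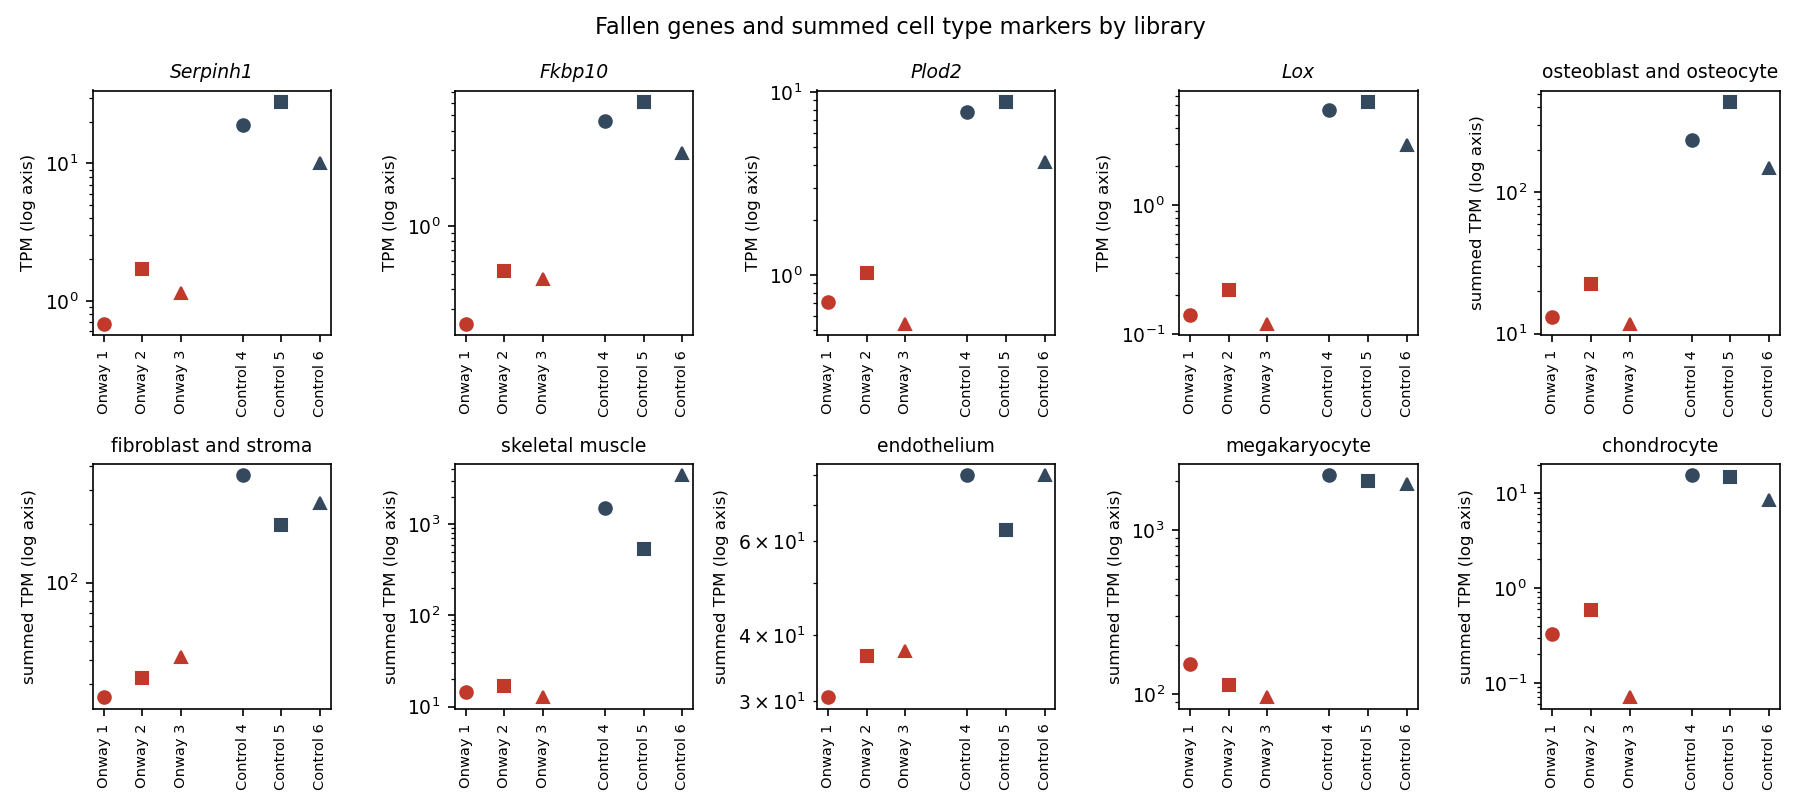
TPM of the 4 fallen genes and summed TPM of 6 cell type marker lists (vertical axes, log scale) in each library, Onway in red and Control in blue. Every panel has all Onway libraries under all Control libraries. Control 5 is highest for the 4 genes and for the osteoblast and osteocyte sum, whose largest member in each Control library is Bglap.

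Blood cell markers, which define marrow, were abundant in all 6 libraries. Erythroid markers summed to 94787 to 340784 TPM in Onway and 116984 to 267815 TPM in Control, and neutrophil markers to 96006 to 174593 and 87811 to 195688 TPM in the same order of groups. Onway 3 and Control 4 had the highest erythroid and the lowest neutrophil sums of their groups, and P4ha1, Plod1, Plod3 and Crtap were each lowest within Onway in Onway 3. In Control 4, Plod1 and Plod3 were the lowest of their group, while P4ha1 lay between the others and Crtap was the highest. The 6 B cell markers summed to 174, 538 and 584 TPM in Onway and 184, 189 and 126 TPM in Control. Of these 0 passed in limma. Pax5 alone did not overlap between the groups, with Onway higher, and the share of all tested genes with that pattern is not given here. At an unadjusted p under 0.05 in limma, 4 of the 6 markers were higher. Across all 14192 tested genes 1897 had such a p in either direction. The part of the erythroid and B cell shares in the levels was not tested.

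The wider collagen pathway divided in the same manner. Of 29 further genes of collagen modification, export and processing, 20 were tested in limma. Of these 8 fell and 0 rose, against 2.99% of all tested genes lower and 0.233% higher. At an unadjusted p under 0.05, 12 were lower and 0 higher, and 1897 of all 14192 tested genes had such a p in either direction. The median log2 fold change was −0.85 against 0.03 over all tested genes. The count lower was 3, 2 and 2 without Onway 1, Onway 2 and Onway 3, 3 without Control 4, 4 without Control 6 and 1 without both Control 4 and Onway 3. Of the 14 with at least 1 TPM in both groups, 2 fell, against 1.48% of all tested genes at that level. The lysyl oxidase relatives Loxl1, Loxl2 and Loxl3 fell, all at under 1 TPM in each Onway library. Loxl1 was at 0.287 ± 0.0839 TPM in Onway and 4.19 ± 1.93 TPM in Control (log2 fold change −1.94, limma adjusted p = 0.017), Loxl2 at 0.130 ± 0.0721 and 2.63 ± 1.41 TPM (−1.62, adjusted p = 0.032), and Loxl3 at 0.627 ± 0.194 and 2.96 ± 0.687 TPM (−1.27, adjusted p = 0.027), in the same order of groups (SD, n = 3 each). The fourth relative, Loxl4, was at 0.0233 ± 0.0231 TPM in Onway and 0.457 ± 0.226 TPM in Control, below the filter. Each of the 3 calls ended without Onway 2 (adjusted p = 0.083, 0.11 and 0.10 for Loxl1, Loxl2 and Loxl3) or without Onway 3 (0.077, 0.10 and 0.086). Without Control 6 those of Loxl1 (0.062) and Loxl3 (0.13) ended, and without Control 4 or Onway 1 those of Loxl2 (0.065 and 0.080) and Loxl3 (0.089 and 0.053).

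Of the 10 tested genes of procollagen export and processing 4 fell, namely Bmp1, Pcolce, Adamts2 and Sparc, against 2.99% of all tested genes. Of the 8 at 1 TPM or more in both groups 2 did, against 1.48% of all tested genes at that level. The N-propeptide protease Adamts3 did not pass (1.25 ± 0.644 TPM in Onway and 2.66 ± 0.730 TPM in Control, SD, n = 3 each, limma adjusted p = 0.30). Its groups did not overlap, with Onway lower as in 11.5% of tested genes. Adamts14 overlapped below the filter. Bmp1, the C-propeptide protease that also activates Lox, was at 0.79, 0.82 and 0.84 TPM in Onway, against 7.13, 5.57 and 3.67 TPM in Control (log2 fold change −1.79, SE 0.24, limma adjusted p = 0.0072). Pcolce, which enhances that protease, was at 1.30 ± 0.326 TPM in Onway and 7.01 ± 1.41 TPM in Control (SD, n = 3 each, limma adjusted p = 0.0042). Adamts2, the N-propeptide protease, was at 0.180 ± 0.0265 and 1.84 ± 0.146 TPM in the same order of groups (limma adjusted p = 0.020, and 0.064 to 0.069 without Onway 1, Onway 2 or Onway 3). Sparc, a collagen-binding matrix protein, was at 5.64 ± 2.35 TPM in Onway and 170 ± 131 TPM in Control (log2 fold change −4.42, SE 0.64, limma adjusted p = 0.023, and 0.11, 0.057, 0.084 and 0.097 without Onway 1, Onway 2, Onway 3 and Control 4). By contrast the export factors Mia3, the cargo receptor that loads procollagen into vesicles, and Mia2 did not pass. Mia3 was at 27.2 ± 5.74 TPM in Onway and 22.5 ± 0.470 TPM in Control (SD, n = 3 each, limma adjusted p = 0.67), and Mia2 at 66.0, 74.9 and 45.7 TPM in Onway and 54.3, 52.6 and 52.8 TPM in Control (adjusted p = 0.75 in limma).

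Among the partners of the prolyl hydroxylases 1 of 7 tested genes fell in limma, against 2.99% of all tested genes. Of the 6 at 1 TPM or more in both groups 0 did, against 1.48% of all tested genes at that level. At an unadjusted p under 0.05, 3 of the 7 were lower and 0 higher, and 1897 of all 14192 tested genes had such a p in either direction. The called gene, which reached the filter through Control alone, was P3h2, a prolyl 3-hydroxylase of basement membrane collagen, at 0.217 ± 0.178 TPM in Onway and 2.07 ± 0.681 TPM in Control (log2 fold change −1.32, SE 0.27, limma adjusted p = 0.043, and 0.12, 0.095 and 0.11 without Onway 1, Onway 2 and Onway 3). P4hb, the beta subunit shared by all P4ha enzymes, was at 184, 178 and 97.8 TPM in Onway and 142, 197 and 173 TPM in Control (limma adjusted p = 0.82). Ppib, the cyclophilin partner of Crtap, was at 216, 240 and 170 TPM in Onway and 224, 291 and 241 TPM in Control (adjusted p = 0.63 in limma). The groups overlapped for both genes, and the sign of the P4hb difference turned under 3 of the alternatives. P3h1 was at 3.03 ± 0.437 TPM in Onway and 5.13 ± 0.969 TPM in Control, and P3h3 at 1.13 ± 0.769 and 3.15 ± 1.01 TPM (SD, n = 3 each, limma adjusted p = 0.23 and 0.20). Neither overlapped, with Onway lower as in 11.5% of tested genes. P3h4, below the filter, was at 0.0467 ± 0.0451 and 1.11 ± 0.291 TPM with no overlap, as were 10.9% of genes above 0 in some library.

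**Figure D4:**
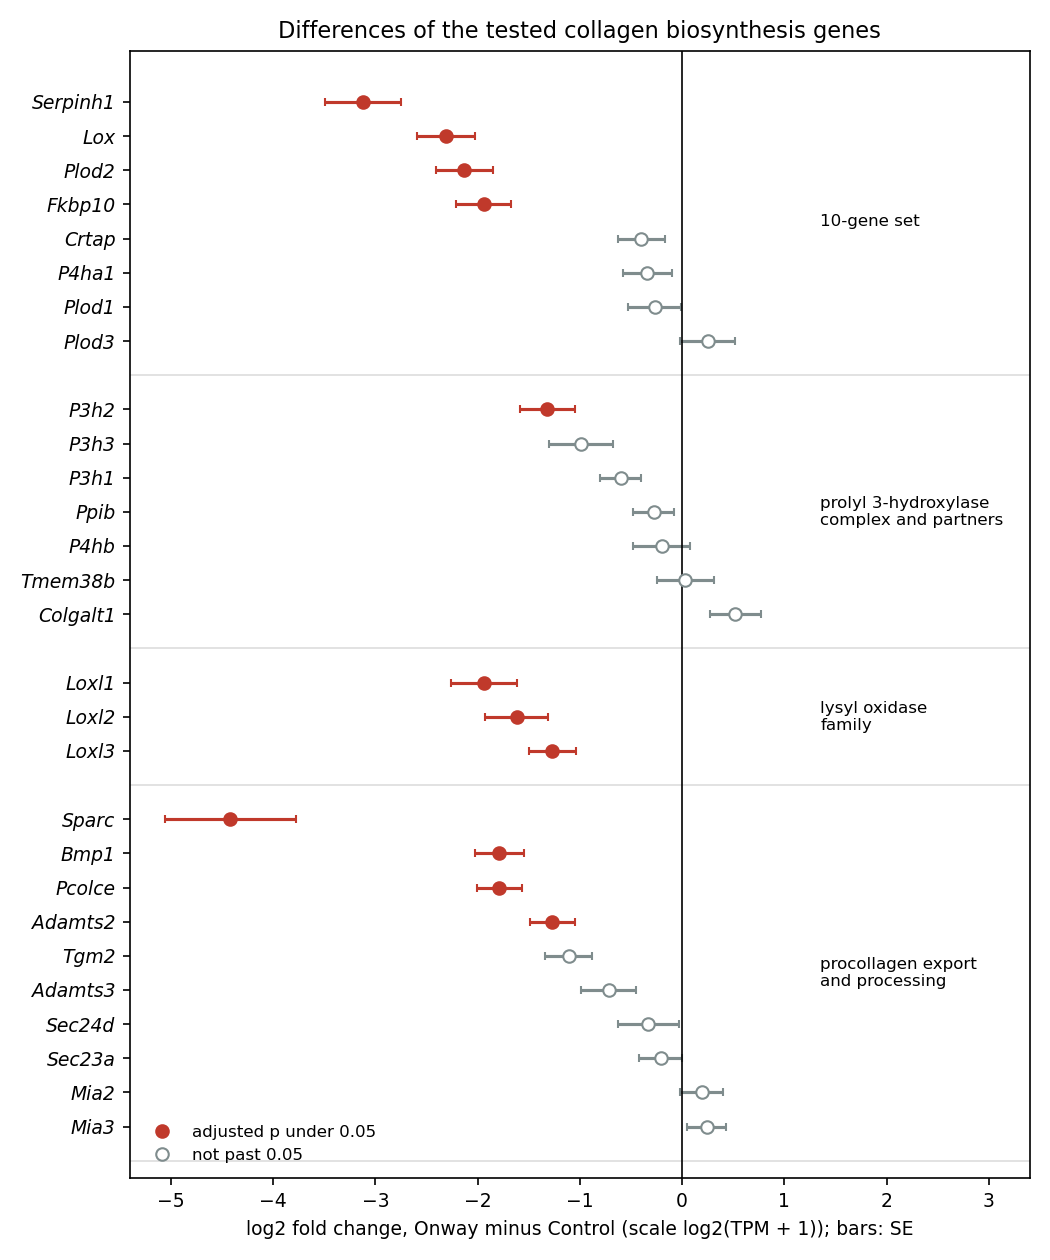
Log2 fold change of Onway minus Control on the log2(TPM + 1) scale with its SE (horizontal axis) for the 8 tested genes of the 10 and the 20 tested genes of the wider pathway, by group. Filled red points passed an adjusted p of 0.05 in limma, and they run from −4.42 for Sparc to −1.27 for Adamts2 and Loxl3.

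No tested gene of the general folding, hypoxia and other dioxygenase lists passed the threshold. Of 14 tested general folding factors of the endoplasmic reticulum 0 passed in limma, and 0 had an unadjusted p under 0.05. Calr, calreticulin, was at 351 ± 124 TPM in Onway and 482 ± 109 TPM in Control, and Hsp90b1, a heat shock protein of that compartment, at 213 ± 67.0 and 203 ± 24.1 TPM in the same order of groups (SD, n = 3 each, limma adjusted p = 0.54 and 0.98). P4ha1, P4ha2, Plod1, Plod2 and Lox are known targets of hypoxia-inducible factors, whose part in the falls was not tested. Of 18 tested genes of the hypoxia list 0 passed in limma, and 1 had an unadjusted p under 0.05. It was Aldoa (ENSMUSG00000030695), a glycolytic enzyme that muscle also carries, at 498 ± 143 TPM in Onway and 885 ± 298 TPM in Control (limma adjusted p = 0.30). Its groups did not overlap, with Onway lower as in 11.5% of tested genes. Ldha was at 315 ± 79.5 and 408 ± 80.2 TPM in the same order (adjusted p = 0.59 in limma). Of 12 tested other dioxygenases that use 2-oxoglutarate 0 passed in limma, and 0 had an unadjusted p under 0.05, among them Egln2 and Phyh (adjusted p = 0.77 and 0.97). Below the filter, Adm of the hypoxia list was at 0.153 TPM in Onway and 0.650 TPM in Control (means). The dioxygenases P4htm (0.273 and 0.683 TPM) and Tet1 (0.660 and 0.463 TPM) were below it too. Adm and P4htm were lower in Onway with no overlap, as were 10.9% of genes above 0 in some library. Tet1 and Egln2 were higher with no overlap, and the share of all genes with that pattern is not given here.

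The promoters of Serpinh1, which fell, and P4ha1, which did not pass the test, are shown as a pair because both hold the same 2 motifs. They are the 250 bases before the transcription start in RefSeq (GRCm38.p6), which held 7 of the 10 genes, and Fkbp10, Plod2 and Lox had no entry. The Serpinh1 window is chr7:99353240-99353489 on the minus strand, and that of P4ha1 is chr10:59323046-59323295 on the plus strand. Capitals mark ACGTG, a form of the core bound by hypoxia-inducible factors, and GGGCGG, the GC box, searched on both strands. Other forms of that core were not searched. In these windows the motifs did not overlap each other.
Serpinh1 promoter: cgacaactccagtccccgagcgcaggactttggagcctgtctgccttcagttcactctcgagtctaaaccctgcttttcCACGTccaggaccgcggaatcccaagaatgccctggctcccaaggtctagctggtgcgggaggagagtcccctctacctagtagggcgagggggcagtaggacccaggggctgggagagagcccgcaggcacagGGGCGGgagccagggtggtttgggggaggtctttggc
P4ha1 promoter: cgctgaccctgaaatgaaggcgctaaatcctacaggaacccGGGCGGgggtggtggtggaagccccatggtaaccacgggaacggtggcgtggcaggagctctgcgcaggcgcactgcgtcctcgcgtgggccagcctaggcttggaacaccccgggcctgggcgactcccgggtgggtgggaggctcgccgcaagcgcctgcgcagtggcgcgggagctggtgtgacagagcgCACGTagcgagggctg

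Each of the pair holds 1 match of ACGTG and 1 of GGGCGG. Among the 7 genes with an entry, ACGTG was found in 4 (Serpinh1, P4ha1, P4ha2 and Plod3) and GGGCGG in 5 (Serpinh1, P4ha1, P4ha2, P4ha3 and Plod1). Of 32851 promoters of the same length, 16.6% held ACGTG and 32.7% held GGGCGG. The heat shock core GAANNTTC was in 0 of the 7 windows and in 6.69% of all promoters, CCAAT in 1 of the 7 and in 33.8%, and TATAAA in 2 of the 7 and in 12.4%. These are matches of letters and not measured sites.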

How the data were processed

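Per the labels' protocols, a column kit served for RNA isolation and a SMARTer kit for the mRNA libraries. The submitters' processing notes name GRCm38 and mm10, while aligner, quantifier and strand setting were not given in the sources used here. TPM was deposited by the authors for 158850 transcripts, of which 142434 are annotated and 16416 were assembled by them. Each library sums to 1000000 TPM, so read depth is unknown and no counting interval is given. The length of each transcript is as deposited by the authors. The Onway columns carry another prefix and were matched to the titles by number.

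TPM was summed to 56496 genes. Those averaging 1 TPM or more (14192) were tested on log2(TPM + 1) with limma 3.58.1 in R 4.3.3 (mean-variance trend, robust moderation, two-sided, no covariate), and p-values were Benjamini-Hochberg adjusted over all of them at a threshold of 0.05. Each SE is limma's moderated one. Shares were compared by exact permutation over the 20 assignments. The script was tested on simulated data with 200 changed genes. The genes and lists were chosen with earlier results of these data known. The text names every gene of the set, up to 4 called and 2 uncalled genes of each pathway list (the uncalled by level), and for each called gene of the set the 3 tested genes most correlated with it. Loxl4, Adamts3, Adamts14, P3h1, P3h3, P3h4, Adm, P4htm, Tet1, Nt5c3b, Znhit1 and single marker genes were added after their values were seen. Alternatives covered pseudocounts, filters, scalings, transcripts, weights and left-out libraries. Gene and exon coordinates are those of GENCODE M21 (GRCm38).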

Additional observations from a re-analysis of the deposited data

Results flagged for a closer look

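Beside the libraries, the authors' deposited table gives mean TPM per group, and in each group 4 times that mean, less the 3 libraries, leaves a total of 1000000 TPM, as a further library would. This remainder, computed after seeing the data, never fell under zero by more than 0.011 TPM, whereas 4 times the Control mean fell short of the 3 Onway libraries for 30461 transcripts. It entered no test. By the authors' deposited table it was 2.83 TPM in Onway and 2.44 TPM in Control for Serpinh1, and 0.62 TPM in Onway and 0.44 TPM in Control for Fkbp10, so for both the Onway remainder was above the Control one. For Plod2 the authors' deposited table leaves 0.41 TPM in Onway and 0.55 TPM in Control, and for Lox 0.27 and 0.96 TPM in the same order. For all 4 genes the Control remainder lay under each of the 3 Control libraries. It also did for the genes that follow, chosen after their values were seen. By the authors' deposited table Col1a1 was left 0.54 TPM in Onway and 0.43 TPM in Control, and Sparc 8.64 and 7.73 TPM. Bglap was left 0.78 and 0.41 TPM, Acta1 0.44 and 0.03 TPM, and Pf4 468 and 381 TPM, in the same order. Other genes had the lower remainder in Onway, among them Col1a2 (1.54 and 2.41 TPM) and Dcn (2.73 and 4.84 TPM). The means in the authors' deposited table, which contain the libraries analysed, were 1.59 TPM in Onway and 14.9 TPM in Control for Serpinh1, 0.46 and 3.51 TPM for Fkbp10, 0.67 and 5.33 TPM for Plod2, and 0.188 and 3.94 TPM for Lox, in the same order.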

How the results depend on the processing

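The falls of Serpinh1, Fkbp10, Plod2 and Lox kept their direction under all alternatives and their calls under all but leaving out both Control 4 and Onway 3, where 0 of the 10 genes were called lower, 1 of the wider list was, and 207 genes were lower and 97 higher over the whole table. The cause was not tested, though that fit has 2 libraries a group. Leaving out 1 library gave 246 to 456 genes lower and 16 to 87 higher (main 424 and 33) and 2 to 7 of the wider list lower. Calls higher made up 7.22% of all calls, 31.9% without that pair, 22.1% without Onway 3, 21.5% without Control 4 and 19.9% without Onway 1. The median over all tested genes was 0.11 without Onway 3 and 0.14 without the pair, against 0.03.

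Array weights gave 1906 lower and 1957 higher, 50.7% of calls higher, with 1 of the 10 genes (Plod3, log2 fold change 0.48, limma adjusted p = 0.034) and 1 of the wider list higher. Genes higher numbered 61 with median-of-ratios scaling and 56 with quantile normalization. With annotated transcripts alone, the share differences of Onway minus Control were -0.147, -21.1 and 21.2 percentage points for Plod1, Plod2 and Plod3, against -3.62, -11.1 and 14.7, since this drops the assembled Plod3 transcripts. Signs turned for P4hb (0.26 with annotated transcripts, 0.03 with array weights, -0.36 to 0.10 with 1 library left out), Hsp90b1 (-0.01 with quantile normalization, -0.21 to 0.24) and Phyh (-0.01 with quantile normalization, -0.04 with array weights, -0.18 to 0.31). Loxl2, Adamts2 and P3h2 have no value where they averaged under 1 TPM. Apart from left-out libraries, P3h2 lost its call without the robust option, with pseudocount 0.1, without haemoglobin genes and with quantile normalization (limma adjusted p = 0.052, 0.071, 0.054 and 0.057), and Loxl2 and Col5a2 lost theirs with no filter (0.051 and 0.053) and with quantile normalization (0.084 and 0.055). Array weights called Aldoa (0.023) and Mia3 (0.049).

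No paired analysis was possible because the groups share no replicate number. TPM keeps no depth, so values near 0 have unknown counting error.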
